A study of Mus musculus with 9 samples.

Results

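The transcription factors Tbx2, Tbx3, Tbx4, Tbx5, Pitx1, Shox2, Prrx1, Prrx2, Meox1 and Meox2 were followed across clones of mouse embryonic cells that differ in ploidy. They are a set of 10 genes, of 20018 genes named on the array. The set was chosen by name for roles in limb and mesenchyme patterning, with earlier results of these data known. Each gene was read at its brightest probe among the 55681 probes of a 1-colour (Cy3) Agilent mouse array. All 10 were matched to a probe through RefSeq accessions, Prrx1 to 2 probes and the others to 1 each. Each of the 9 arrays held RNA of 1 clone, with 3 clones of each ploidy (diploid, triploid and tetraploid). The genotype field gave p53-/- for all clones, controls included, so that every comparison was made between cells labelled as lacking p53, while the free-text descriptions of 8 clones write other numbers in place of p53. Cells grew in serum-supplemented medium and were left untreated. Neither the age or strain of the embryos nor the tissue the cells came from is given in the sources used here.

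T-box and homeobox proteins bind DNA and set where in the embryo a mesenchymal cell belongs. In the early limb bud, Pitx1 and Tbx4 are known for the hindlimb field and Tbx5 for the forelimb field, and Pitx1 acts upstream of Tbx4. Tbx2 and Tbx3 are repressors of the limb margins and flank, Shox2 is required for the proximal limb skeleton, the paired-related factors Prrx1 and Prrx2 mark much of the undifferentiated mesenchyme, and Meox1 and Meox2 pattern somites and limb muscle.

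RefSeq promoter windows on GRCm38.p6 were available for 5 of the 10 genes. The 250 bases before the annotated start are shown for Meox2, whose level differed between groups in the tests, for the paralogues Prrx1 and Prrx2, which were present in every clone, and for Tbx4, which was above background in some clones of a group and not in others. Capitals mark matches, on either strand, to a TATA box (TATAAA), a GC box (GGGCGG), a homeodomain core (TAATTA), a bicoid-type core (TAATCC), the NF-Y box (CCAAT), a T-box site (AGGTGTGA) or a homeodomain palindrome (TAAT followed after 3 bases by ATTA).
Meox2 (chr12:37108290-37108539, plus strand): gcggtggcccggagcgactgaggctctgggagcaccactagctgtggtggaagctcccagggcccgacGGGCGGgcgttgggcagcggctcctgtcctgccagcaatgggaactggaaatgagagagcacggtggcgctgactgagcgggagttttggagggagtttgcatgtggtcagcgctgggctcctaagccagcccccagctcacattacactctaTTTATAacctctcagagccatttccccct
Prrx1 (chr1:163313651-163313900, minus strand): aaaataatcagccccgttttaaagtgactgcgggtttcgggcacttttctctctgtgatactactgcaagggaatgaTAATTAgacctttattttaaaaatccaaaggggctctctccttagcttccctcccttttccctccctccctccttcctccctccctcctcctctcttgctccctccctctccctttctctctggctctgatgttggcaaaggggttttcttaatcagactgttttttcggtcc
Prrx2 (chr2:30845117-30845366, plus strand): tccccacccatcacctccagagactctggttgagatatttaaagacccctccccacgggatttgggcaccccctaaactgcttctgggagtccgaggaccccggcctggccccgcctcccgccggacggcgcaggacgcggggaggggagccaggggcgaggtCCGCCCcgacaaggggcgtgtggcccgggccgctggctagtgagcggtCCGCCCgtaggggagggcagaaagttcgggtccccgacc
Tbx4 (chr11:85896515-85896764, plus strand): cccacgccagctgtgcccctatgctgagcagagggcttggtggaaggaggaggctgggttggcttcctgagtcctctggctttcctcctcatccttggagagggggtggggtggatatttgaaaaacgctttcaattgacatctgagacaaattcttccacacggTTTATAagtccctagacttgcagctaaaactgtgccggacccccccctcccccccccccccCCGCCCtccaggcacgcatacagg
The Meox2 window held 1 TATA box match, on the strand opposite to the gene, which began 29 bases before the start, and 1 GC box match. The Tbx4 window held 1 match to each of these motifs, the TATA box match again on the opposite strand, and the Prrx2 window held 2 GC box matches. The Prrx1 window had 1 match to the homeodomain core and 0 to the other motifs. Among 32851 promoter windows of the same length, 12.4% had a TATA box match, 32.7% a GC box match, 4.84% a homeodomain core match, 33.9% an NF-Y box match, 6.25% a bicoid-type match, 1.12% a T-box site match and 0.463% a palindrome match. The paralogues differed in base composition, with a GC content of 47.6% and 4 CpG dinucleotides for Prrx1 against 70.0% and 21 for Prrx2. The median over all windows was 52.4% and 6.

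On each array 44.8% to 50.9% of spots passed the scanner's test for signal over background. Diploid clone 1 was the only array on its slide and the other 8 shared a slide and a scan. Trp53, the gene of p53, was well above background on 1 of 9 arrays. Whether its probe lies in a deleted part is not stated, so it does not check the genotype. Levels below are log2 processed signals relative to the 75th percentile of the same array, and a value from an array on which the probe was not well above background is a background reading. Of 11 mesenchyme and fibroblast markers, 9 to 11 were above background in every clone. All 4 blood cell markers on the array were below background in every clone. Of the epithelial markers, Krt14 and Krt19 were above background in all 9 clones, Krt18 in 6 and Krt5 in 4, while the defining markers Cdh1 and Epcam were at background in every clone. Endothelial markers above background numbered 2 or 3 of 6 per clone, neural and glial 3 or 4 of 6, and cartilage and bone 2 to 5 of 6. Heart muscle markers numbered 1 to 3 of 6 and pluripotent cell markers 1 or 2 of 5. Among these, Pecam1, Kdr, Sox10, Tubb3, Nes, Acan, Runx2, Myh7 and Nanog had signal in all 9 clones. In these bulk RNA samples, fewer cells expressing a gene and less RNA per cell cannot be told apart.

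The number of factors above background differed between clones. It was 9, 7 and 6 of 10 in diploid clones 1 to 3, 7, 7 and 6 in tetraploid clones 1 to 3, and 4, 3 and 3 in triploid clones 1 to 3. Of all spots, 48.0%, 48.0% and 50.4% passed in diploid clones, 46.2%, 44.8% and 50.9% in tetraploid clones and 47.9%, 50.8% and 47.5% in triploid clones. The factors were chosen with earlier results of these data known, so their counts are a description. Only Prrx1 and Prrx2 were above background in all 9 clones. The other 8 were each above background in some clones and not in others, and clones of the same ploidy often differed. A probe entered the tests when at least 1 group had signal in all of its 3 clones, which Tbx3, Pitx1, Prrx1, Prrx2 and Meox2 did. Tbx2, Tbx4, Tbx5, Shox2 and Meox1 were not tested and are described clone by clone. A tested gene had to be bright throughout at least 1 group, so counts over the tested factors say nothing of the untested ones.

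**Figure D1:**
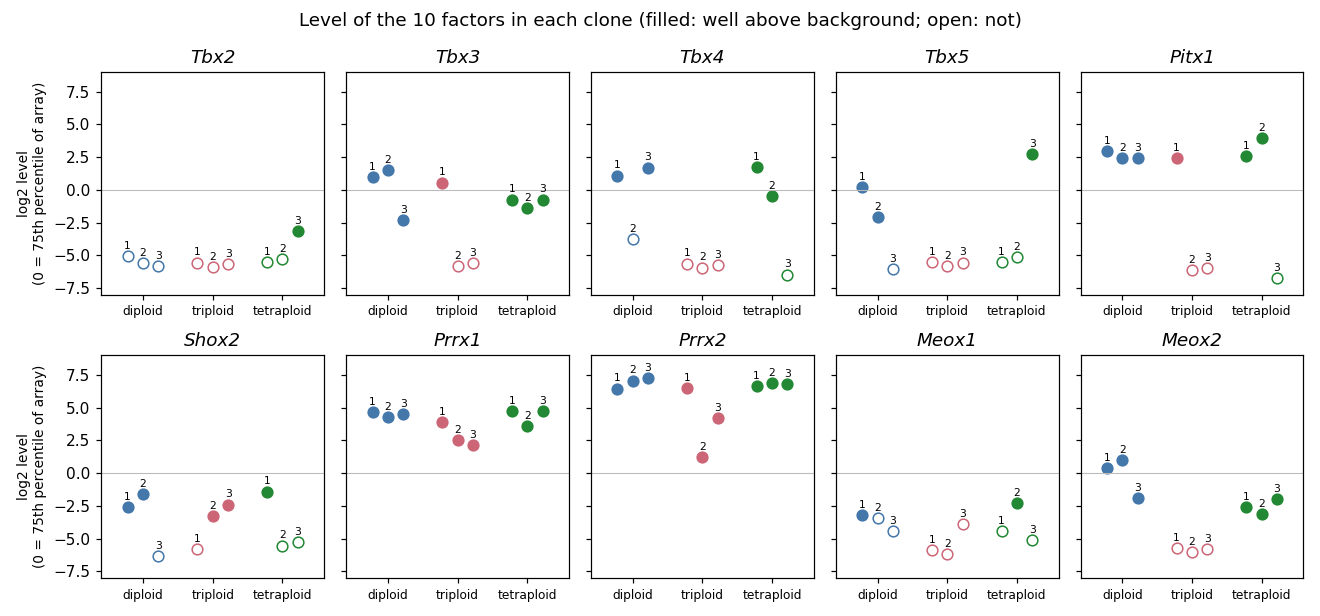
Log2 level of each of the 10 factors (vertical axis, 0 is the 75th percentile of the array) in the 3 clones of each ploidy, with the clone number above each point. Filled points were well above background and open points were not. Meox2 is open in all 3 triploid clones, and Pitx1 is split within the triploid and tetraploid groups.

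**Figure D2:**
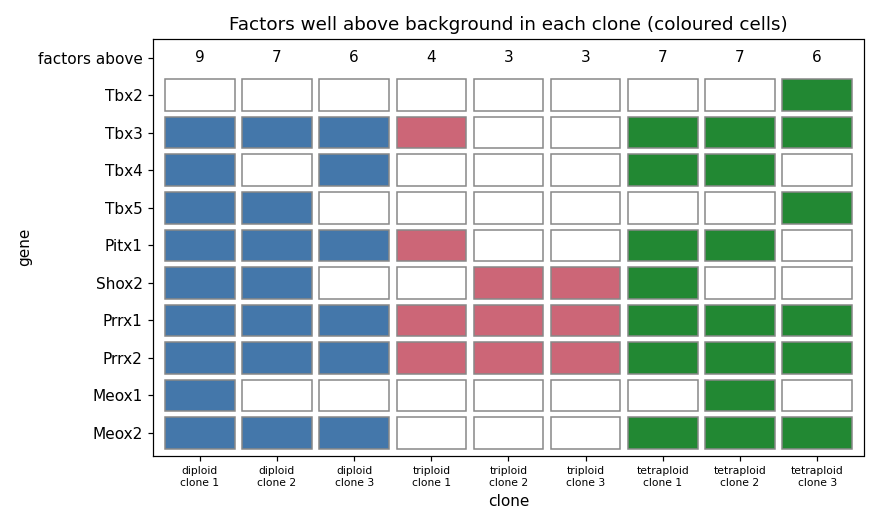
Each cell is 1 factor (rows) in 1 clone (columns), coloured where the probe was well above background and white where it was not, and the top line gives the number of factors above background per clone. The triploid clones have 4, 3 and 3 coloured cells, fewer than any diploid or tetraploid clone. Of all spots, 47.5% to 50.8% passed in triploid clones and 44.8% to 50.9% in the others.

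Meox2, a homeobox factor of somites and limb muscle, was lower in triploid clones than in both other groups. Its level was 0.39, 1.00 and -1.92 in diploid clones 1 to 3 and -2.63, -3.16 and -1.98 in tetraploid clones 1 to 3. In triploid clones 1 to 3 it read -5.72, -6.03 and -5.83, and the probe was not well above background on any of these 3 arrays. The diploid values were the highest and the triploid values the lowest, and no groups overlapped, although diploid clone 3 lay next to tetraploid clone 3. With triploid readings raised to the dimmest signal that passed as above background on each array, the triploid level was 11.7-fold below the diploid level. The fitted log2 difference was -5.68 ± 0.65 SE (adjusted p = 0.00727, limma, n = 3 clones per group). Against tetraploid clones the fitted difference was -3.27 ± 0.65 (adjusted p = 0.0374, limma), and the level was 2.19-fold lower with the readings raised. With background readings raised to the dimmest passing signal, that difference was -1.13. The dimmest passing signal is no detection limit, so these folds are not strict bounds. On tetraploid clone 2, Trp53 read -3.30 and did not pass, above the dimmest passing signal of -3.36. The p-values belong to the fitted differences, which take in triploid background readings, and not to the folds with raised readings. The triploid SD of 0.16, beside 1.54 in diploid and 0.59 in tetraploid clones, is a spread of background readings and enters the SE. Between tetraploid and diploid clones the difference of -2.41 ± 0.65 did not pass (adjusted p = 0.145, limma, 95% interval -3.89 to -0.94).

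Meox2 was the only one of the 5 tested factors called between triploid and diploid clones, where limma called 1.84% of 21791 features (1.22% as lower), and again the only one between triploid and tetraploid clones, where it called 2.7% (1.62% as lower). The test of any difference among the 3 groups also called Meox2 alone among the factors (adjusted p = 0.0109, limma), and 2.38% of all features. Between tetraploid and diploid clones limma called 0 of the 5 factors and 0.0734% of features. At an unadjusted p under 0.05, 4 factors passed between triploid and diploid clones, 1 between tetraploid and diploid clones and 3 between triploid and tetraploid clones, against 21.2%, 14.8% and 20.8% of all features. Groups that did not overlap, with the first lower, were found for Meox2 and Prrx1 between triploid and diploid clones (10.8% of features), for Meox2 between tetraploid and diploid clones (11.1%) and for Meox2 and Prrx2 between triploid and tetraploid clones (11.3%). The comparisons share groups of arrays and are not independent. The factors were chosen with earlier results of these data known, and those tested had passed the brightness filter. These counts therefore do not measure an enrichment.

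The call of Meox2 between triploid and diploid clones held in all 19 other settings in which the gene was tested, at log2 differences of -6.56 to -2.39, the smallest with normexp background correction. These settings are not separate tests. The authors' table and the mean over probes carry nearly the same Meox2 values. The slide block is the same fit as leaving out diploid clone 1, and the array weights did not converge. The call between triploid and tetraploid clones did not hold in 9 of 19 settings. With normexp the difference shrank to -0.75 (adjusted p = 0.364, limma). Of the clones, leaving out diploid clone 1 (adjusted p = 0.0601), tetraploid clone 1 (0.108), tetraploid clone 3 (0.130), triploid clone 2 (0.119) or triploid clone 3 (0.120) ended it in limma. With the slide as a block it stood at 0.0601, the same fit as without diploid clone 1, and without the filter on dim probes at 0.0810. Without diploid clone 3, the tetraploid clones passed as lower than the diploid clones (-3.28, adjusted p = 0.0219, limma).

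**Figure D3:**
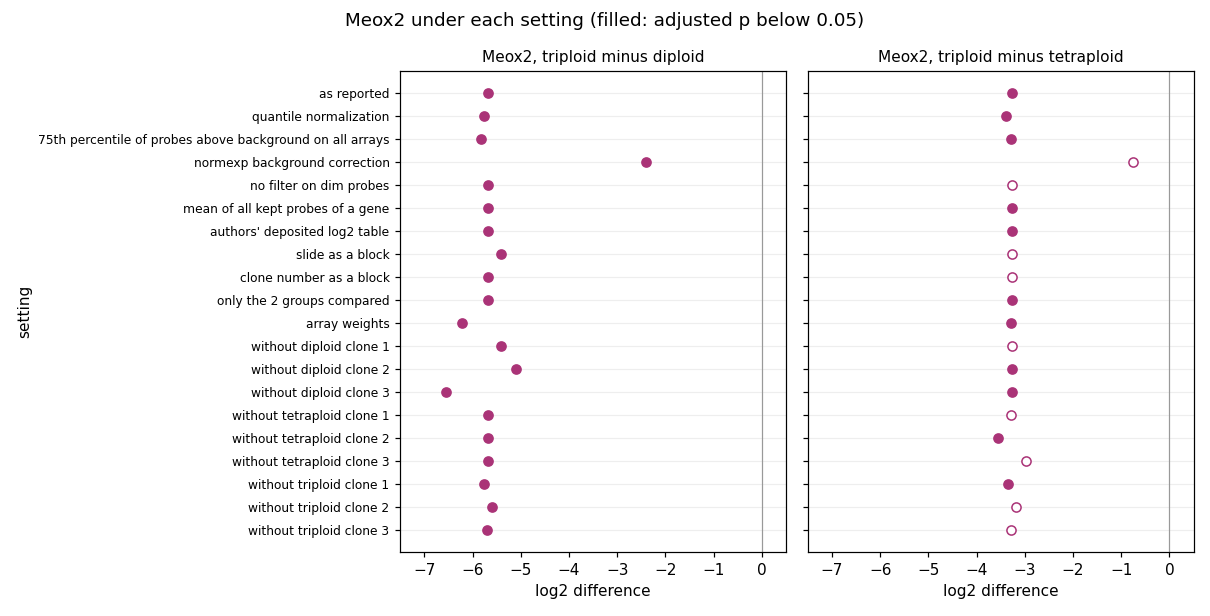
Log2 difference of Meox2 (horizontal axis) between triploid and diploid clones (left) and between triploid and tetraploid clones (right) as reported and in 19 other settings (vertical axis). Filled points had an adjusted p below 0.05. All points on the left are filled, and 9 on the right are open.

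Marker lists of other cell types also varied between clones. For 9 epithelial markers the summed processed signal, in multiples of the 75th percentile, ran from 13.2 to 32.9 in diploid clones, from 30.8 to 49.5 in tetraploid clones and from 0.905 to 2.26 in triploid clones, with 4 or 5, 2 or 3 and 2 to 5 of 9 markers above background. The 3 epithelial markers tested had a median log2 difference of -3.04 between triploid and diploid clones and of 0.71 between triploid and tetraploid clones, with 1 called as lower in each comparison. Mesenchyme and fibroblast markers summed to 2300 to 3065 in diploid clones, 2396 to 2988 in tetraploid clones and 1149 to 2646 in triploid clones. Skeletal muscle markers summed to 21.3 to 25.6, 8.25 to 16.4 and 2.97 to 13.7 in diploid, tetraploid and triploid clones, with 1 or 2 of 6 above background and the muscle regulators Myod1 and Myog at background in every clone. Mesothelial markers split the triploid clones. They summed to 140 and 93.5 in triploid clones 2 and 3, with 5 of 5 above background, to 4.09 in triploid clone 1 and to 3.76 to 46.9 in the other clones. Triploid clones 2 and 3 are also those in which Prrx2, Tbx3 and Pitx1 lay lowest or at background among the triploid clones. The part of these markers in the level of Meox2 or of the other factors was not tested.

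Meox1, the paralogue of Meox2 and a somite factor, was close to background. It was above background in diploid clone 1 at -3.19 and in tetraploid clone 2 at -2.30. The other 7 arrays read between -6.17 and -3.46, with the 3 triploid arrays at -5.86, -6.17 and -3.91. The clones with Meox1 signal were thus single members of their groups, and both also had Meox2 signal.

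The paired-related factors Prrx1 and Prrx2, general markers of undifferentiated mesenchyme, were high in all diploid and tetraploid clones and lower in triploid clones 2 and 3. Prrx2 stood at 6.45, 7.06 and 7.22 in diploid clones 1 to 3 and at 6.64, 6.89 and 6.80 in tetraploid clones 1 to 3. In triploid clones 1 to 3 it was 6.47, 1.21 and 4.17. Triploid clone 1 thus lay among the diploid clones, and clones 2 and 3 lay below every other clone. The difference between triploid and diploid clones, -2.96 ± 1.03, did not pass (adjusted p = 0.156, limma), nor did that between triploid and tetraploid clones (-2.83 ± 1.03, adjusted p = 0.164, limma).

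Prrx1 was also lowest in triploid clones. Its level was 4.67, 4.27 and 4.50 in diploid clones, 4.73, 3.56 and 4.70 in tetraploid clones, and 3.91, 2.51 and 2.10 in triploid clones 1 to 3. All triploid values lay below all diploid values, as was so for 10.8% of features, while triploid clone 1 lay above tetraploid clone 2. The differences were -1.64 ± 0.48 from diploid clones (adjusted p = 0.110, limma) and -1.49 ± 0.48 from tetraploid clones (adjusted p = 0.126, limma), and neither passed. The second Prrx1 probe gave -1.70 and -1.15 for the same comparisons. Between tetraploid and diploid clones the differences of Prrx1 (-0.15, 95% interval -1.23 to 0.94) and Prrx2 (-0.13, 95% interval -2.46 to 2.20) were near 0, with intervals that allow changes of over 2-fold.

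Without triploid clone 1, both paralogues and Tbx3 passed between triploid and diploid clones, at -2.17 for Prrx1 (adjusted p = 0.0160), -4.22 for Prrx2 (adjusted p = 0.0140) and -5.74 for Tbx3 (adjusted p = 0.0133, limma for all). They also passed against tetraploid clones, at -2.03, -4.09 and -4.73 (adjusted p = 0.0207, 0.0158 and 0.0279, limma). Of the 9 fits with a clone left out, only this one called these differences. It leaves out the triploid clone in which all 3 factors read highest, so larger differences follow from that choice. Its p-values are therefore no separate support. Both remaining triploid clones were at background for Tbx3. With their readings raised to the dimmest passing signal, Tbx3 was 14.2-fold lower than in diploid and 7.05-fold lower than in tetraploid clones. That fit called 1431 of 21791 features in the first comparison, against 400 with all clones, and 1312 against 589 in the second. Over all kept probes, triploid clone 1 correlated with triploid clones 2 and 3 at Pearson's r of 0.947 and 0.955, and those correlated with each other at 0.985. It correlated with diploid clones 1 and 2 at 0.958 and 0.964 and with tetraploid clone 2 at 0.956, above both values within its own group. This was not particular to that clone. Diploid clone 3 correlated with tetraploid clone 1 at 0.975, above its values of 0.973 and 0.969 with diploid clones 1 and 2.

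**Figure D4:**
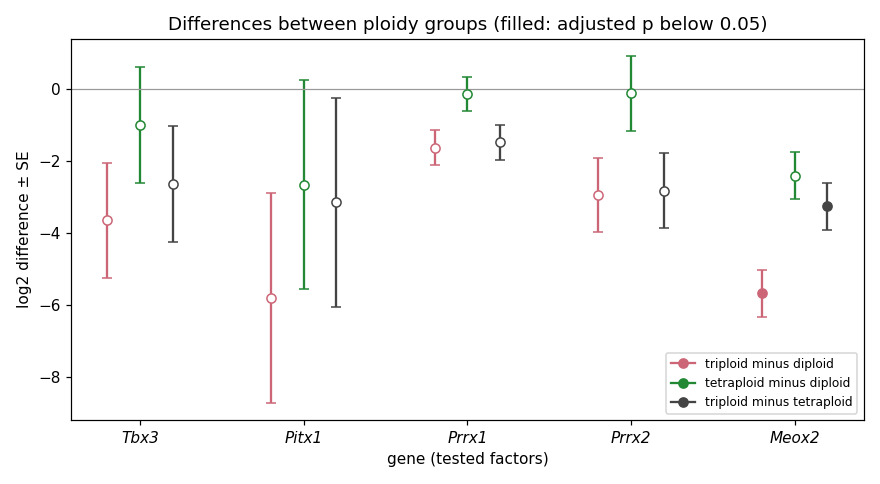
Fitted log2 differences ± SE (vertical axis) of the 5 tested factors (horizontal axis) for the 3 pairs of groups, from 3 clones per group. Filled points had an adjusted p below 0.05, which only Meox2 reached, at -5.68 and -3.27.

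Pitx1, the hindlimb factor that acts upstream of Tbx4, was either bright or at background. It stood at 2.93, 2.41 and 2.42 in diploid clones 1 to 3, at 2.59 and 3.92 in tetraploid clones 1 and 2 and at 2.43 in triploid clone 1. In tetraploid clone 3 it read -6.74, and in triploid clones 2 and 3 it read -6.14 and -5.97, all at background. The 6 clones with signal came from all 3 groups, so that the groups overlapped. The SD within groups was 4.39 for Pitx1, above that of every other feature tested and against a median of 0.37 over all features. With background readings raised to the dimmest signal that passed as above background, a choice made after the values were seen, the SD was 3.34 and 5 features lay higher. The differences of -5.81 ± 2.90 between triploid and diploid clones (adjusted p = 0.288) and -2.66 ± 2.90 between tetraploid and diploid clones (adjusted p = 0.702, limma) did not pass, and the latter turned to 0.67 without tetraploid clone 3. Between triploid and tetraploid clones the difference was -3.15 ± 2.90 (adjusted p = 0.546, limma).

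Tbx4, the T-box factor of the hindlimb, was above background in 4 clones, all of them among the 6 with Pitx1. It stood at 1.09 and 1.69 in diploid clones 1 and 3 and at 1.71 and -0.49 in tetraploid clones 1 and 2. In diploid clone 2 it read -3.74, in tetraploid clone 3 -6.48 and in triploid clones 1 to 3 -5.63, -5.94 and -5.73, none above background. Diploid clone 2 and triploid clone 1 thus had Pitx1 signal without Tbx4 signal, and 3 clones had neither. When dim probes were not filtered out, the Tbx4 difference of -5.45 ± 1.94 between triploid and diploid clones did not pass (adjusted p = 0.331, limma).

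Tbx5, the forelimb and heart T-box factor, was above background in 3 clones. Its highest level was 2.73 in tetraploid clone 3, followed by 0.22 in diploid clone 1 and -2.07 in diploid clone 2. Diploid clone 3 read -6.03, tetraploid clones 1 and 2 read -5.51 and -5.14, and triploid clones 1 to 3 read -5.51, -5.83 and -5.57, all at background. Tbx4 and Tbx5 were both above background in 1 clone, diploid clone 1, while 3 clones had Tbx4 alone, 2 had Tbx5 alone and 3 had neither. Tetraploid clone 3 was thus the clone with the brightest Tbx5 reading and, among diploid and tetraploid clones, the only one without Pitx1.

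The Y-linked gene Ddx3y also had signal in some clones only. It was above background in the 3 diploid clones and in tetraploid clones 1 and 2, at 0.63 to 2.51, and at background in the 3 triploid clones and tetraploid clone 3, at -6.45 to -5.58. All 4 clones with Tbx4 signal and 5 of the 6 with Pitx1 signal had Ddx3y signal, triploid clone 1 being the exception. Between triploid and diploid clones, Ddx3y signal ran with ploidy. For every gene in that comparison, Meox2 included, ploidy and sex chromosome content, read here at Ddx3y alone, cannot be told apart. Tetraploid clone 3, at background for Ddx3y, had Meox2 signal at -1.98, beside -2.63 and -3.16 in tetraploid clones 1 and 2. The part of sex chromosome content in the levels of Meox2, Pitx1 and Tbx4 was not tested.

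Tbx3, a repressor active in limb margins and flank, was above background in 7 clones. It stood at 0.94, 1.50 and -2.33 in diploid clones 1 to 3, at -0.75, -1.41 and -0.75 in tetraploid clones 1 to 3 and at 0.55 in triploid clone 1. Triploid clones 2 and 3 read -5.80 and -5.61, at background. Triploid clone 1 thus lay within the diploid range and triploid clones 2 and 3 lay below every other clone. The differences of triploid clones from diploid clones (-3.66 ± 1.60, adjusted p = 0.231) and from tetraploid clones (-2.65 ± 1.60, adjusted p = 0.379, limma) did not pass with all clones, and were -2.38 and -1.37 with background readings raised to the dimmest passing signal. Between tetraploid and diploid clones it was -1.01 ± 1.60 (adjusted p = 0.805, limma).

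Tbx2, the closest relative of Tbx3, was above background in 1 clone, tetraploid clone 3, at -3.16. The other 8 arrays read between -5.90 and -5.06. Shox2, a homeobox factor of the proximal limb, was above background in 5 clones from all groups. It stood at -2.57 and -1.60 in diploid clones 1 and 2, at -1.42 in tetraploid clone 1 and at -3.27 and -2.41 in triploid clones 2 and 3. Diploid clone 3 read -6.32, tetraploid clones 2 and 3 read -5.55 and -5.29, and triploid clone 1 read -5.78. Shox2 was the only factor with signal in triploid clones 2 and 3 and none in triploid clone 1.

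Some of the factors lie side by side in the genome, Tbx2 next to Tbx4 and Tbx3 next to Tbx5 among protein-coding genes. Each pair held clones with signal for 1 gene and not for the other. Tbx4 was above background in 4 clones and Tbx2 in none of these, while Tbx3 was above background in all 3 clones with Tbx5 and in 4 others. The nearest tested protein-coding genes on each side of the 10 factors, leaving out the factors themselves, were 16 genes. Limma called 0 of the 16 in each of the 3 comparisons, and 2, 5 and 6 had an unadjusted p under 0.05 between triploid and diploid, tetraploid and diploid, and triploid and tetraploid clones. Over all features, 1.84%, 0.0734% and 2.7% were called and 21.2%, 14.8% and 20.8% had an unadjusted p under 0.05. Beside Meox2, for example, Ankmy2 differed by 0.05 and Etv1, an ETS factor, by -1.37 between triploid and diploid clones (adjusted p = 0.943 and 0.364, limma).

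For each tested factor, the named genes with the closest pattern were sought by the root mean square difference of centred log2 levels over the 9 clones. This measure is a description, and it takes in background readings. For Tbx3 the closest was Tnc, the matrix glycoprotein tenascin C, at 0.54. Tnc stood at 0.98, 0.85 and -2.03 in diploid clones, at -0.90, -2.05 and -0.92 in tetraploid clones, at -0.37 in triploid clone 1 and at background in triploid clones 2 and 3. The next were S1pr3, a receptor for sphingosine phosphate, at 0.91 and Zfp618 at 0.97. For Prrx2 the closest was the forkhead factor Foxc2 at 0.41, with levels of 1.94 to 2.61 in all diploid and tetraploid clones and of 1.35, -2.67 and -0.24 in triploid clones 1 to 3. Nat2 and Tusc1 followed at 0.51 and 0.52.

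For Meox2 the closest were Cracd, a regulator of actin capping, at 0.81, Adgrg5, an adhesion receptor, at 0.92 and the homeobox gene Hoxa7 at 0.96. Cracd stood between -0.12 and 0.32 in diploid clones and between -2.11 and -1.86 in tetraploid clones, and was at background in triploid clones. For Prrx1 they were Txndc16, the cyclin gene Ccnd1 and Glipr2 at 0.23, 0.27 and 0.28. By the root mean square difference, which is not scaled to a gene's range, Pitx1 had no close match. Of the factors, Pitx1 had the widest range of levels. Its nearest genes were Wnt10b, a Wnt ligand, at 2.08, the growth cone gene Gap43 at 2.43 and Ddx3y at 2.44. Wnt10b was still above background in the same clones as Pitx1 and at background in the others. In this, Gap43 differed from Pitx1 only in tetraploid clone 3, and Ddx3y only in triploid clone 1.

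**Figure D5:**
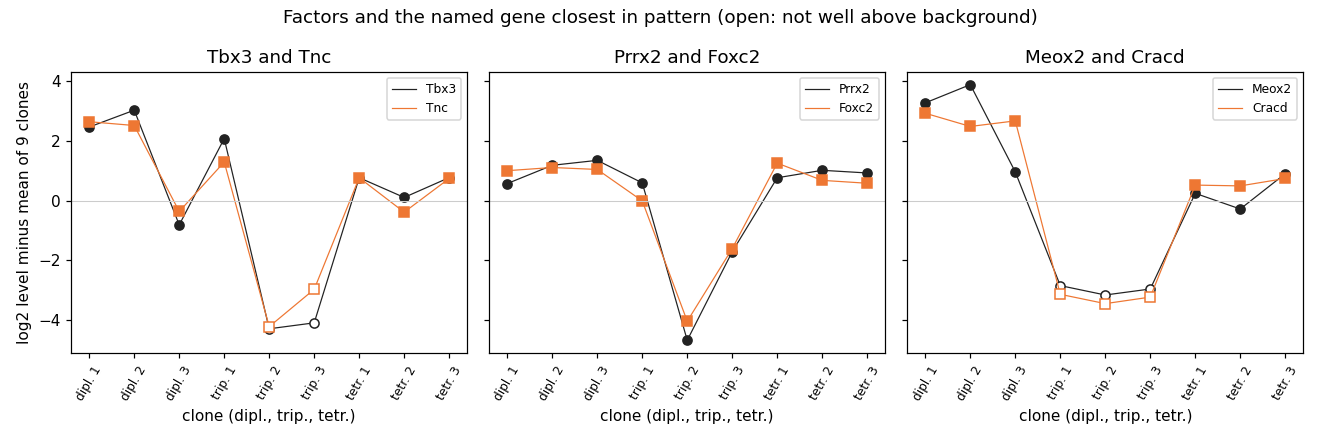
Log2 level minus the mean of the 9 clones (vertical axis) for Tbx3, Prrx2 and Meox2 (black circles) and the named gene closest to each in pattern (orange squares), by clone (horizontal axis). Open symbols were not well above background. The root mean square differences are 0.54 for Tnc, 0.41 for Foxc2 and 0.81 for Cracd.

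Of the other T-box genes, 7 of 13 were tested. Tbx15, a T-box factor of dermis and skeleton, fell in triploid clones and was the only one called. The median difference of the 7 genes was -0.03 from diploid and 0.38 from tetraploid clones. The level of Tbx15 was 2.94, 2.51 and 3.45 in diploid clones, 3.64, 4.20 and 3.85 in tetraploid clones and 0.62, -0.57 and 1.18 in triploid clones. The triploid clones lay below all others, by -2.56 ± 0.44 against diploid clones (adjusted p = 0.0297) and by -3.49 ± 0.44 against tetraploid clones (adjusted p = 0.00739, limma). The first of these calls ended without diploid clone 1 (adjusted p = 0.0847), diploid clone 3 (0.108), tetraploid clone 1 (0.0540) or triploid clone 2 (0.0676), in limma, and the second held with each clone left out.

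Among 25 limb bud signals, 16 were tested, with 2 lower in triploid than in diploid clones and 3 lower than in tetraploid clones. Their median difference was -0.55 and -0.84, beside 0.10 and 0.17 over all features. Cyp26b1, the enzyme that clears retinoic acid in the distal limb bud, stood at 3.04, 2.65 and 3.64 in diploid, 2.95, 4.11 and 3.23 in tetraploid and -2.79, -3.07 and -1.0 in triploid clones. It was lower by -5.40 ± 0.55 and -5.72 ± 0.55 (adjusted p = 0.00412 and 0.00289, limma), with each clone left out too. Rspo2, a secreted enhancer of Wnt signalling, stood at 3.77 to 5.90 in diploid and tetraploid clones, at 1.24 in triploid clone 1 and at background in triploid clones 2 and 3. It was lower by -7.51 ± 1.46 and -8.53 ± 1.46 (adjusted p = 0.0443 and 0.0233, limma), or by -6.75 and -7.76 with background readings raised to the dimmest passing signal. The difference from diploid clones passed in only 1 of 9 fits with a clone left out, that without triploid clone 1. That from tetraploid clones ended without tetraploid clone 1 (adjusted p = 0.0770), tetraploid clone 3 (0.0844), triploid clone 2 (0.0576) or triploid clone 3 (0.0916), in limma.

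Fgf10, the mesenchymal growth factor that Tbx4 and Tbx5 are known to activate in limb buds, stood at 0.36, -1.04 and 0.01 in diploid clones and at 2.18, 1.28 and 2.53 in tetraploid clones. Triploid clone 1 had -0.55, within the diploid range, and triploid clones 2 and 3 were at background. The triploid clones were lower than tetraploid clones by -6.06 ± 1.23 (adjusted p = 0.0385, limma), or -4.71 with background readings raised to the dimmest passing signal. This call held in only 2 of 9 fits with a clone left out, those without tetraploid clone 2 or triploid clone 1, and the highest adjusted p was 0.133. The difference from diploid clones, -3.84 ± 1.23, did not pass (adjusted p = 0.132, limma). The call of Fgf10 was the only one among the 13 tested of 18 genes described as regulated by the factors.

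Of 25 other homeobox genes of mesenchyme 17 were tested, and of 21 other limb and mesenchyme factors 12. Between triploid and diploid clones, Dlx1 (1.52 ± 0.28, adjusted p = 0.0380) and the forkhead factor Foxf2 (1.27 ± 0.23, adjusted p = 0.0357) rose and Msx2, a target of BMP signals, fell (-2.67 ± 0.54, adjusted p = 0.0475, limma). Of 21 somite and sclerotome factors 10 were tested, and Mkx, a tendon factor, rose (1.61 ± 0.28, adjusted p = 0.0322, limma). Each of these 4 calls ended without diploid clone 1, 2 or 3 or without triploid clone 2. Those of Dlx1, Foxf2 and Msx2 also ended without triploid clone 3, those of Dlx1, Foxf2 and Mkx without tetraploid clone 1, and that of Msx2 without tetraploid clone 3 or with normexp (-1.77, adjusted p = 0.0590, limma). Leaving out 1 clone gave a highest adjusted p of 0.117 for Dlx1, 0.129 for Foxf2, 0.162 for Msx2 and 0.116 for Mkx in limma. The median difference between triploid and diploid clones was -0.22 for these homeobox genes, -0.29 for the other limb and mesenchyme factors and 0.18 for the somite factors, beside 0.10 over all features. Over the 6 lists together, 71 genes were tested. Limma called 7 of them between triploid and diploid clones (1.84% of features), 4 between triploid and tetraploid clones (2.7% of features) and 0 between tetraploid and diploid clones (0.0734% of features). An unadjusted p under 0.05 was found for 23, 27 and 9 of the 71 in these comparisons, against 21.2%, 20.8% and 14.8% of all features. The lists were chosen with earlier results of these data known, so these counts and medians do not measure an enrichment.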

How the data were processed

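Per the file headers, signals come from the scanner software Feature Extraction, version 10.7.3.1, and the array design from mouse build mm9. The deposited processed signal is an intensity, background-subtracted and detrended by the software and not normalized between arrays. The deposited 0 or 1 calls of spots above background, per the file headers, set the filter. The authors' deposited log2 table, an alternative here, is relative to diploid clone 1 per the labels, and equalled the scanner values up to a constant per array within 0.001 at 100% of probes. Flagged spots were left out, spots of a probe averaged as log2 values, and each array centred on its 75th percentile. A probe was kept when every clone of some group had signal (25462 probes). RefSeq accessions were named through a GRCm38.p6 table. The brightest kept probe stood for each of 12428 named genes, tested with 9363 unnamed probes. The model of group means, run in limma 3.58.1 (R 4.3.3), took all 9 arrays, with Benjamini-Hochberg adjustment at a threshold of 0.05. The fit was also run on simulated normal values without a background floor, with shifts set in the triploid group. That run does not cover genes at background in some clones. Arrays give no counts, and their number limits the precision. Labels do not say that clones came from separate animals or cultures, so p-values measure the spread between these samples. Where a group was at background, as for Meox2 in triploid clones, its part of that spread is of background readings.

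The members and lists were chosen with earlier results of these data known. All 10 factors are described. Of each list, called genes are named, up to 8 by adjusted p, and for each tested factor spanning at least 2 log2 units, the 3 named genes closest in pattern. Files held no mean pixel signal, so normexp (offset 50) used median signals.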

Additional observations from a re-analysis of the deposited data

How the results depend on the processing

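The 5 tested factors were refitted in up to 20 other settings. The number called between triploid and diploid clones was 1 in 17 of the 20, 0 among the 2 factors above background on all 9 arrays and 5 with array weights. Between tetraploid and diploid clones it was 1 with array weights. Between triploid and tetraploid clones it was 0 with normexp, without the dim filter, with only probes above background on all arrays, with the slide as a block or with the replicate block, and 5 with array weights. Leaving out 1 clone at a time gave 1 to 4, 0 to 1 and 0 to 4 factors called in the 3 comparisons. The array weights did not converge and gave tetraploid clone 1 a weight of 72.3 against 0.261 to 1.39 for the others.

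Features called between triploid and diploid clones, 400 as reported, numbered 103 without the dim filter, 81 with the slide as a block, 219 with the replicate block, 206 with only the 2 groups fitted, 4170 with array weights and 61 to 1431 with a clone left out. Between tetraploid and diploid clones the 16 became 5 with quantile normalization, 97 with scaling to probes above background on all arrays, 9 with normexp, 0 without the dim filter, with the slide as a block or with the replicate block, 5356 with array weights and 0 to 40 with a clone left out. Between triploid and tetraploid clones the 589 became 198 without the dim filter, 284 with the slide as a block, 369 with only the 2 groups fitted, 8727 with array weights and 117 to 918 or, without triploid clone 1, 1312 with a clone left out. The causes were not tested.

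Among the 5 tested factors, directions turned in the comparison of tetraploid with diploid clones alone, for differences that did not pass. Pitx1 became 0.0384 and Prrx1 0.33 with array weights. Leaving out 1 clone gave -4.66 to 0.67 for Pitx1, above 0 without tetraploid clone 3, -0.35 to 0.24 for Prrx1, above 0 without tetraploid clone 2, and -0.36 to 0.025 for Prrx2, above 0 without diploid clone 3. Scaling to probes above background on all arrays moved the median over all features from 0.10 to -0.05 between triploid and diploid clones and from -0.01 to -0.14 between tetraploid and diploid clones. Clone numbers are labels only. Deviations of clones with the same number correlated at -0.13 to 0.09, and of clones with other numbers at -0.07 to 0.13, so the numbers pair nothing known. With the replicate block, the calls of Dlx1, Foxf2, Mkx and Rspo2 between triploid and diploid clones and of Meox2 between triploid and tetraploid clones (adjusted p = 0.0639, limma) did not pass. The slide block equals leaving out diploid clone 1, whose slide held no other array. For Tbx2, Tbx4, Tbx5, Shox2 and Meox1, signals near background limit what can be compared.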
